A study of Mus musculus with 9 samples.

Results

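Gastrocnemius muscle of aged female mice that received ginkgolide B (GB) was compared with the same muscle of aged female mice that received vehicle, by RNA sequencing. The comparison takes 6 of the 9 libraries of the series, 3 with GB and 3 with vehicle, and all genes of the deposited count table. Of the 56791 genes in the table, 17534 had enough counts to be tested. Saline served as vehicle, the dose of GB was 12 mg/kg, and both were gavaged by mouth each day for 2 months. The titles of the aged vehicle libraries hold 23M, those of the GB libraries hold no age, and both groups are labelled aged. The remaining 3 libraries, from young vehicle mice whose titles hold 3M, entered the scaling and the estimate of the spread, and a few of their means are given for orientation. No label ties a library to an animal of its own, so p-values refer to the spread among these libraries, part or all of which may be technical. Every GB library is a treated one and the labels name no batch, so treatment and any difference in handling or preparation cannot be told apart.

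Ginkgolide B, a terpene lactone from leaves of Ginkgo biloba, blocks the receptor for platelet activating factor, a lipid mediator of inflammation. The gastrocnemius is a calf muscle of mice built mainly from fast fibres, which draw on glycolysis, with fewer slow fibres, which rely on mitochondria. Each fibre type carries its own set of myosin, troponin and calcium pump genes. In old age muscle loses fibre mass, and the balance of fibre types, mitochondrial content, protein synthesis and protein breakdown are among the properties usually examined.

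Markers of muscle fibres were abundant in all 6 libraries. Acta1, the actin of the muscle thin filament, stood at 22111, 25226 and 24569 CPM (counts scaled to a common library size with TMM factors) in aged vehicle libraries 1 to 3 and at 52286, 60127 and 56167 CPM with GB. The muscle creatine kinase gene Ckm stood at 7056, 6773 and 5878 CPM against 4851, 7024 and 6321 CPM, so that its groups overlapped. The summed level of 16 fibre markers was 123650 to 141120 CPM in aged vehicle and 199890 to 232310 CPM with GB.

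The GB libraries were less deep and less diverse. Total counts were 39478427 to 44294097 with GB and 52068522 to 54095457 in aged vehicle. After thinning to the smallest total, 18678 to 19308 genes had a count with GB, against 22523 to 22689. The share of counts in mitochondrially encoded genes was 24.33 to 26.08% with GB and 13.86 to 15.31% in aged vehicle, and that of the 50 most abundant genes was 53.46 to 56.57% against 41.6 to 42.33%. For each of these measures the groups did not overlap, and the exact two-sided permutation test gave p = 0.1, the smallest that 3 against 3 allows. Their part in the results that follow was not tested.

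More than 50 in every 100 genes differed. With edgeR's quasi-likelihood test and an adjusted p under 0.05, 4281 genes were higher with GB (24.4% of the genes tested) and 5045 were lower (28.8%), 53.2% in all. The 3 GB and 3 aged vehicle libraries did not overlap in 59.7% of the genes tested. The change was more than 2-fold upward (log2 fold change over 1) in 2296 genes, or 13.1%, and more than 2-fold downward in 2706, or 15.4%. Among the genes tested the median log2 fold change was -0.05, with the 10th percentile at -1.65 and the 90th at 1.41. Scaling by library totals moved that median to -0.62 and the calls to 2030 higher and 8421 lower. The share of calls that were higher was 45.9% with TMM, 51.1% with upper-quartile factors and 19.4% with library totals. Changes below are relative to the TMM scale, on which the median gene hardly moved. Counts in the lists below stand against the 24.4% higher and 28.8% lower over all genes tested. Where a list below has no member called in a direction, it also had none there at an unadjusted edgeR p under 0.05, with DESeq2 or with limma-voom, except where stated.

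The falls of greatest size took genes that were readily detected in every aged vehicle library to the edge of detection with GB. Pdpr, which encodes a regulatory subunit of pyruvate dehydrogenase phosphatase, fell from 178, 155 and 154 CPM to 1.11, 1.92 and 1.47 CPM. Its log2 fold change was -6.75 ± 0.19 (SE, n = 3 libraries per group, edgeR adjusted p = 2.45e-10). The dipeptidase gene Pm20d2 fell from 26.7, 21 and 22.5 CPM to 0.509, 0.36 and 0 CPM. Ppara, the fatty acid receptor that turns on genes of fat oxidation, fell from 21.4, 15.9 and 14.4 CPM to 0.381, 0.42 and 0.224 CPM. Its log2 fold change was -5.64 ± 0.37 (edgeR adjusted p = 1.3e-07). In all 3 genes the highest GB library lay more than 10-fold below the lowest aged vehicle library. The other falls among the 10 of greatest size were in Bmp5, a secreted growth factor of the bone morphogenetic protein family (log2 fold change -6.51), Sim1, a transcription factor (-5.90), and Zbed6, a repressor of Igf2 (-5.68). They also held the carboxypeptidase gene Agbl1 (-5.63), the nucleotidase gene Nt5c1a (-5.62), Uprt, a homologue of a pyrimidine salvage enzyme (-5.13), and Srp54b (-4.97). Srp54b, a signal recognition particle gene, was uneven in aged vehicle, at 12.3, 4.29 and 0.296 CPM, against 0.191, 0.18 and 0.16 CPM with GB. Its call was lost with limma-voom (adjusted p = 0.416), and in edgeR without GB library 1 (adjusted p = 0.0668) or GB library 3 (adjusted p = 0.0553).

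Of the 10 rises of greatest size, 4 were in genes of the slow muscle sarcomere and 2 in genes of the HoxD cluster, which lays out position along the limb. Myl2, the regulatory light chain of slow myosin, rose from 1.71, 5.15 and 1.81 CPM to 390, 475 and 499 CPM, a log2 fold change of 7.29 ± 0.48 (edgeR adjusted p = 6.27e-06). Hoxd10 rose from 0.0352, 0.0632 and 0.197 CPM to 7.66, 7.92 and 5.95 CPM, and Hoxd9 from 1.3, 1.34 and 1.18 CPM to 38.2, 28.3 and 31.3 CPM. No library of either group came near the other group in these 3 genes. Young vehicle libraries, for orientation, averaged 216 CPM of Myl2, 3.66 CPM of Hoxd10 and 22.6 CPM of Hoxd9. The remaining rises were in the slow troponin genes described below, Serf1, Ikzf5 and a pair of RNAs that make no protein. The mitochondrial ribosomal RNA mt-Rnr1 rose from 687, 822 and 726 CPM to 10445, 9079 and 7289 CPM. Rn7sk, an RNA polymerase III transcript that holds back transcription elongation, rose from 0.0352, 0.158 and 0.23 CPM to 2.13, 3.51 and 11.7 CPM.

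Change followed gene length. The deposited table gives a length for each gene, and this length equalled the summed exonic length in GENCODE M21 for 93.5% of the 16691 tested genes that matched by symbol. Genes of up to 500 bases had a median log2 fold change of 1.06, those over 1000 and up to 2000 bases 0.64, those up to 4000 bases 0.19, those up to 8000 bases -0.24 and those over 8000 bases -0.67. In the longest class 1537 of 2606 genes fell (59.0%) and 159 rose. In the shortest, 234 of 532 rose and 92 fell. Spearman's rho of the log2 difference with length was -0.346 to -0.397 over the 9 pairs of a GB and an aged vehicle library. It runs across genes, which are no replicates of each other. Pairs of libraries within a group gave -0.128 to 0.087. Every GB library thus showed the trend, and within a group it was weaker.

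**Figure D1:**
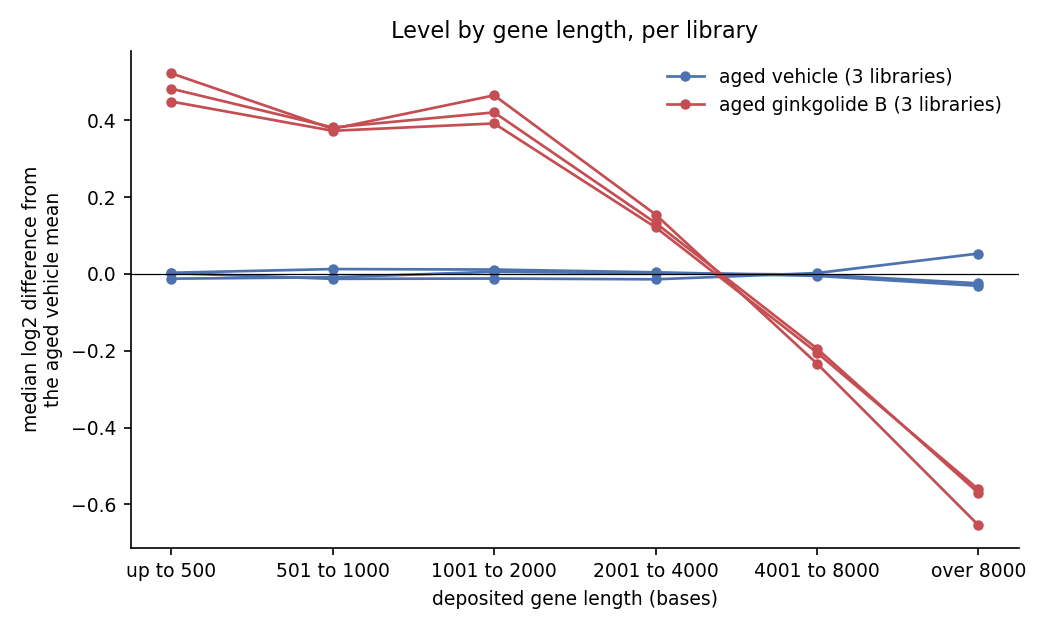
Median difference in log2(CPM + 0.5) of each library from the mean of the aged vehicle libraries (vertical axis), by class of deposited gene length in bases (horizontal axis). Each line is 1 library. The 3 GB lines lie above the 3 aged vehicle lines for genes up to 4000 bases and below them for longer genes.

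Because of this trend the median or the counts of many gene groups below are also given from a second fit, in which a smooth curve of level on length was removed from every library (the length offset). That fit called 4820 genes higher (27.5% of the genes tested) and 3641 lower (20.8%), 48.3% in all, with a median log2 fold change of 0.10. It kept the direction and call of 7119 genes and turned 119 calls round. Of calls in that fit, 57.0% were higher. An offset of this kind takes out change that runs with length, whatever its source, but here part of the trend was left. With the offset the median log2 fold change was 0.82 for genes of up to 500 bases and 0.03 for those over 8000 bases. Among genes of at least 10 CPM these medians were 1.83 and 0.03. Values with the offset can thus still hold change that runs with length, above all for short, abundant genes. The source of the trend was not tested.

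Exonic overlap with a neighbour on the opposite strand went with large falls. Whether counting used strand is not given in the sources used here. Without strand, the reads of overlapping genes cannot be told apart. Among protein-coding genes whose higher group averaged at least 20 CPM, 62 of 3918 with no such overlap (1.58%) fell more than 4-fold. That share was 2.9% where under 10% of the exonic bases were shared and 7.31% where 10 to 30% were. It was 13.5%, or 12 of 89 genes, where 30% or more were. Rises of more than 4-fold made up 2.91%, 1.33%, 3.54% and 6.74% of these classes, from no overlap to 30% or more. Over all genes tested, a wider set of any RNA class and level, rises of that size made up 4.12% and falls 6.68%. Overlaps by GENCODE M21 (GRCm38) are stated beside many of the genes they touch, but not all. Cdkn1c (30.65%), Rbl2 (20.97%), Gadd45a (19.1%), Ckm (15.48%) and Psmb7 (11.84%), for example, share exonic bases with the opposite strand. Ctsd (34.37%) and Rpl24 (46.99%) share theirs with a gene on their own strand. Of the rises named above, Ikzf5, a zinc finger gene, shares 84.5% of its exonic bases with a gene on the opposite strand and Serf1 16.8%. Of the falls, Bmp5 shares 46.7% of its exonic bases with a gene on the opposite strand and Agbl1 20.1%. Zbed6 lies wholly within exonic sequence of another gene on its own strand. Pm20d2, Sim1, Ppara, Nt5c1a and Uprt share none. Among the 10814 genes that share no exonic base with another gene, 24.3% rose and 27.6% fell, 51.9% in all, close to the shares over all genes. Classes of RNA differed as well. The 47 transcripts annotated as lying within introns had a median log2 fold change of -2.57, the 696 processed pseudogenes 0.44 and the 13998 protein-coding genes -0.07.

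**Figure D2:**
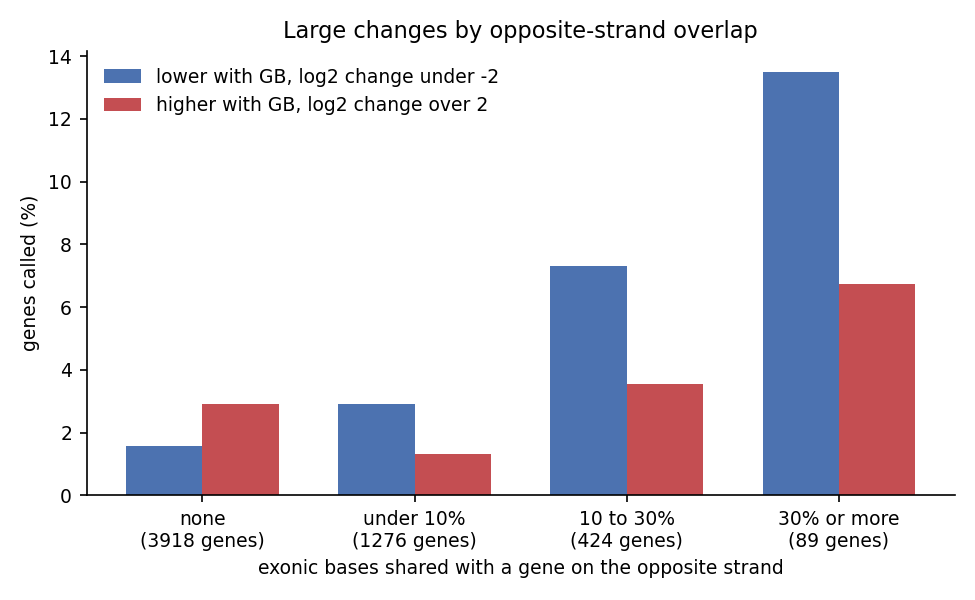
Share of protein-coding genes averaging at least 20 CPM in their higher group that were called with a log2 fold change under -2 or over 2 (vertical axis, percent), by the share of exonic bases overlapped by a gene on the opposite strand (horizontal axis, with the number of genes). The share of large falls goes from 1.58% with no overlap to 13.5% with 30% or more.

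Among contractile genes, slow fibre genes were higher with GB, while the fast myosins went separate ways. Of 15 slow fibre sarcomere genes 10 rose and 3 fell, with a median log2 fold change of 1.79 against -0.05 over all genes tested (1.52 with the length offset). Tnnt1, the tropomyosin-binding subunit of slow troponin, rose from 4.75, 6 and 6.09 CPM to 187, 292 and 290 CPM, or 5.51 ± 0.21 on the log2 scale (edgeR adjusted p = 5.47e-09). Tnni1, its inhibitory subunit, rose from 3.03, 3.22 and 3.19 CPM to 104, 120 and 120 CPM. Tnnc1, its calcium-binding subunit, rose from 1.67, 3.35 and 2.43 CPM to 108, 124 and 145 CPM. All 3 troponin subunits of slow fibres thus went from a few CPM to over 100 CPM in every GB library. Myh7, the slow myosin heavy chain, rose less, from 2.11, 5.42 and 3.93 CPM to 32, 30.4 and 45.3 CPM (log2 fold change 3.23 ± 0.39), and 13.3% of its exonic bases are shared with an antisense gene. Young vehicle libraries averaged 177 CPM of Tnnt1, 72.4 CPM of Tnni1 and 432 CPM of Myh7. The slow list did not move as one. Mybpc1, myosin-binding protein C of slow fibres, fell from 2391, 2596 and 2737 CPM to 549, 561 and 544 CPM. The calcium store protein gene Casq2 fell from 43.6, 70.5 and 48.4 CPM to 23.2, 14.8 and 15.7 CPM. Actn2, a Z-disc actinin, had a log2 fold change of -0.86 ± 0.19. The summed level of the slow list was 3228 to 4046 CPM in aged vehicle and 2889 to 3115 CPM with GB, with Mybpc1 making up most of the sum in aged vehicle.

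Of 16 fast fibre sarcomere genes 8 rose and 3 fell, with a median log2 fold change of 0.69 (0.73 with the length offset). Myh1, the IIx myosin heavy chain, fell from 9347, 11370 and 12192 CPM to 663, 564 and 560 CPM, a log2 fold change of -4.20 ± 0.17 (edgeR adjusted p = 3.63e-09), and 8.11% of its exonic bases are shared with an antisense gene. Myh4, the IIb chain and the leading myosin of this muscle, stood at 35605, 27758 and 26040 CPM in aged vehicle and at 31409, 32615 and 37639 CPM with GB. Its groups overlapped, and the difference of 0.19 ± 0.12 missed the threshold (edgeR adjusted p = 0.199). Scaling moved its direction: the difference was 0.51 with the length offset and -0.38 with library totals, each called, and without aged vehicle library 1 it was called higher (0.32, edgeR adjusted p = 0.0171). The regulatory light chain Mylpf rose from 6599, 6138 and 6574 CPM to 18835, 23711 and 22663 CPM. Fast troponin I (Tnni2) rose from 5303, 5057 and 4933 CPM to 14259, 16996 and 15986 CPM. Actn3, the fast Z-disc actinin, rose from 6932, 5466 and 5019 CPM to 11811, 13011 and 12606 CPM. Each of these was higher in all GB libraries. Other genes of the thin filament and light chains rose too, Acta1, Myl1, Tnnt3 and Tpm1 among them (log2 fold changes 1.23, 1.58, 1.33 and 1.46). Mybpc2, the fast myosin-binding protein C, fell (-0.84 ± 0.12). Reads of the near-identical myosin heavy chains may have been split between copies.

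**Figure D3:**
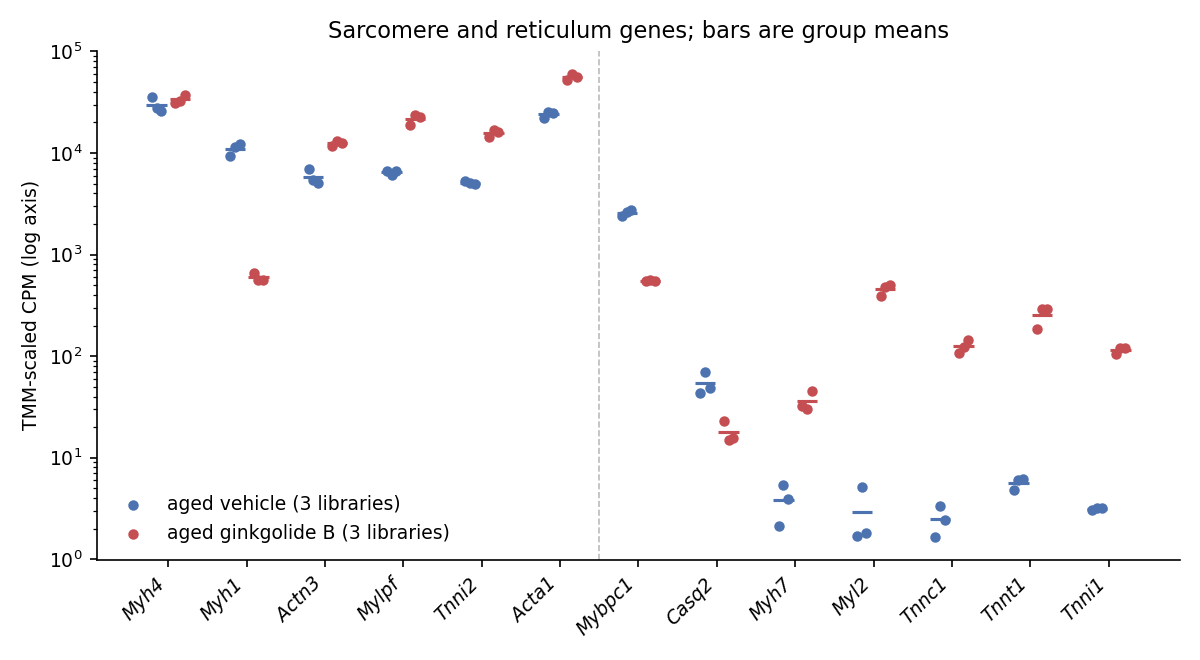
TMM-scaled CPM on a log axis for 6 genes of fast fibres and thin filaments (left of the dashed line) and 7 genes of slow fibres (right). Points are libraries, 3 per group, and bars are group means. Groups overlap only for Myh4. Myh1, Mybpc1 and Casq2 are lower with GB in all 3 libraries, and Myl2 and the slow troponin genes are higher in all 3.

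Calcium handling genes changed in both directions. Of 27, 8 rose and 13 fell (median log2 fold change -0.13), or 9 and 10 with the length offset. Atp2a1, the calcium pump of fast fibres, fell from 20791, 17937 and 16353 CPM to 4423, 7792 and 9180 CPM (-1.36 ± 0.23), and 21.9% of its exonic bases are shared with a gene on the opposite strand. A pair of small regulators of that pump rose. Mrln (myoregulin) rose from 19.8, 20.3 and 18.5 CPM to 111, 120 and 123 CPM, and Sln (sarcolipin) from 8.25, 2.61 and 7.72 CPM to 22.6, 18.9 and 23 CPM. Cacna1s, the voltage sensor of the transverse tubule, fell from 774, 726 and 653 CPM to 53.2, 72.2 and 81.7 CPM, with 19.98% of its exonic bases shared with the opposite strand. Jsrp1, a partner of the voltage sensor at the junction with the reticulum, rose from 303, 295 and 280 CPM to 1273, 1344 and 1198 CPM. Triadin (Trdn), another junctional protein, fell from 1127, 890 and 988 CPM to 429, 418 and 410 CPM. Mb, which encodes the oxygen store myoglobin, fell from 2196, 2621 and 2788 CPM to 356, 268 and 183 CPM. Of its exonic bases 31.9% are shared with the opposite strand.

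Very long muscle genes showed how far the length offset reaches. Of 21 giant and cytoskeletal proteins, 2 rose and 13 fell, and the median of -0.52 turned to 0.17 with the offset, where 10 rose and 8 fell. Ttn, the titin gene with a listed length of 117334 bases, stood at 11490, 8225 and 6965 CPM in aged vehicle and 6496, 6307 and 6532 CPM with GB. Its fold change of -0.46 ± 0.15 (edgeR adjusted p = 0.0242) became 1.27 with the offset. The call was also lost without GB library 1, 2 or 3 (edgeR adjusted p = 0.066, 0.0682 and 0.061) and without aged vehicle library 1 (adjusted p = 0.0675), when the fold change was -0.25, and with limma-voom (adjusted p = 0.0545). Other long genes fell in both fits. Syne1, a nuclear envelope linker, fell from 109, 115 and 98.2 CPM to 12.3, 19.6 and 14.7 CPM (a log2 fold change of -2.79, and lower with the offset too). Dystrophin (Dmd) fell from 226, 179 and 204 CPM to 48.1, 51.3 and 64.2 CPM (-1.90, or -0.82). Nrap and Plec fell as well (-1.01 and -1.34). The members that rose were Des, the intermediate filament desmin (log2 fold change 1.55), and the titin cap Tcap (1.41).

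Ribosomal protein genes were higher with GB almost without exception. All 32 proteins of the small subunit and 46 of 47 of the large subunit rose, with medians of 2.20 and 2.18, or 1.98 and 1.96 with the length offset. The range was 0.83 to 3.09 on the log2 scale. Translation of these messages is known to be set by a run of pyrimidines that opens the message with a C. To show it, the DNA around the annotated start is printed for 3 genes that have such a run at the start and 2 that have none there. A run was defined as a C followed by at least 5 bases that are C or T, on the coding strand, beginning within 5 bases of the annotated start. It is in capitals below. Rps12 and Rpl4 hold stretches of C and T in lower case farther from the annotated start, outside that limit, so a start annotated a few bases away could change how they are classed. Each window holds 30 bases before and 20 bases from the start, 5′ to 3′ (RefSeq, GRCm38.p6).
Rpl38, chr11:114668550-114668599, plus strand: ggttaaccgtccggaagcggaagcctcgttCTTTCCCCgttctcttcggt
Rps27, chr3:90213629-90213678, minus strand: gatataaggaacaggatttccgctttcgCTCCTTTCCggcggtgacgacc
Rps2, chr17:24720033-24720082, plus strand: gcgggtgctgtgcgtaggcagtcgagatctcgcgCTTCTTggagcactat
Rps12, chr10:23787190-23787239, minus strand: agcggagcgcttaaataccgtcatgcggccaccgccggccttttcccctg
Rpl4, chr9:64173357-64173406, plus strand: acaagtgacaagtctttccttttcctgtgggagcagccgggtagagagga

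Such a run stood at the start of 26 of 58 ribosomal protein genes with a promoter in the table (44.8%), against 11.9% of all 27025 symbols there, 4 of 69 mitochondrial ribosomal protein genes (5.8%) and 3 of 33 complex I genes (9.09%). The 26 genes with the run had a median log2 fold change of 2.32 and all of them rose. The 32 without it at the start had 2.08, and 31 of them rose. The other 1549 tested genes with the run had a median of -0.08 and the other 10479 without it -0.05. Rpl38, with a run of 8 bases, rose from 71.2, 70.5 and 65.7 CPM to 574, 616 and 551 CPM (log2 fold change 3.07 ± 0.11, edgeR adjusted p = 7.23e-10). Rps27 rose from 107, 121 and 109 CPM to 836, 811 and 694 CPM. Rps12, with no run within that limit, rose from 96.9, 101 and 98.2 CPM to 807, 833 and 753 CPM. In each of these 3 genes all GB libraries lay far above all aged vehicle libraries. Rps2 rose from 504, 561 and 510 CPM to 1974, 1811 and 1645 CPM. Rpl4, also with none within that limit, rose from 557, 508 and 510 CPM to 939, 1069 and 1116 CPM. Rpl24, named after its values were seen, was the member that missed the threshold, at 0.51, 0.3 and 0.296 CPM against 0.604, 0.9 and 0.48 CPM. Many ribosomal protein genes have pseudogene copies that may have taken part of their reads.

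Other parts of the translation apparatus moved less evenly. Of 79 mitochondrial ribosomal proteins 60 rose and 7 fell (median 0.85), or 40 and 18 with library totals (median 0.28). Mrps21 rose from 64.1, 65.7 and 68.6 CPM to 346, 416 and 400 CPM, and Mrps18b fell from 13.5, 14.1 and 13.9 CPM to 2.73, 3.72 and 5.37 CPM. Mrps18b shares 30.5% of its exonic bases with a gene on the opposite strand. Of 48 translation factors 27 rose and 9 fell, with a median of 0.39 that turned to -0.17 with library totals, where 15 rose and 22 fell. Tpt1, a translationally controlled partner of elongation factors, rose from 1385, 1437 and 1456 CPM to 5230, 5391 and 5196 CPM. Eif1, which scans for the start codon, rose by 1.77 on the log2 scale. Eif2s3x, a subunit of the factor that brings the first transfer RNA, fell from 91, 79.2 and 78 CPM to 18.2, 23.6 and 19.7 CPM. The cap-complex scaffold Eif4g1 fell from 632, 533 and 505 CPM to 300, 296 and 334 CPM. Among 20 cytosolic transfer RNA synthetases 7 rose, Kars among them (0.77), and 6 fell, Iars among them (-1.17). The length offset gave 10 and 3, and library totals 1 and 13.

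Energy metabolism divided between the respiratory chain and the pathways that feed it. Small subunits of the chain were higher with GB. Of 37 nuclear subunits of complex I 31 rose and 3 fell (median 1.18, or 0.97 with the length offset). Of 14 nuclear subunits of cytochrome c oxidase 13 rose and 1 fell (median 0.93), and of 16 ATP synthase subunits 12 rose and 2 fell (median 1.04). With library totals 22 rose and 7 fell in complex I, 9 and 1 in the oxidase and 10 and 5 in ATP synthase. Among all genes of at least 10 CPM, 92.1% of those over 500 and up to 1000 bases rose (median 1.45). Of those over 1000 and up to 2000 bases 79.6% rose (median 0.98). Of the next class, up to 4000 bases, 48.1% rose (median 0.28). Median lengths were 1569 bases for the complex I list, 1037.5 for the oxidase list and 2507 for the ATP synthase list. Whether these lists differed from genes of like length and level was not tested. Ndufc1, an accessory subunit of complex I, rose from 94.6, 114 and 107 CPM to 589, 582 and 528 CPM (log2 fold change 2.43 ± 0.09, edgeR adjusted p = 1.23e-09). The ATP synthase epsilon subunit gene Atp5e rose from 337, 373 and 370 CPM to 1377, 1549 and 1493 CPM. Cox8b, of cytochrome c oxidase, rose from 248, 266 and 260 CPM to 819, 906 and 806 CPM. All 3 genes were several-fold higher in every GB library.

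Several of the nuclear subunits that fell carry catalytic or redox centres. Subunits of that kind also rose, mt-Co1 and mt-Cytb among the mitochondrially encoded genes below. Ndufs1, the largest core subunit of complex I, fell from 396, 371 and 394 CPM to 173, 157 and 150 CPM. Ndufv1, the subunit that binds NADH, and Ndufa9 also fell (log2 fold changes -0.64 and -0.95). The flavoprotein of complex II, Sdha, fell from 964, 870 and 893 CPM to 389, 359 and 316 CPM (-1.36 ± 0.09). The core protein Uqcrc2 of complex III fell from 417, 415 and 423 CPM to 75.8, 59.1 and 70.5 CPM, with 19.8% of its exonic bases shared with the opposite strand. Of complexes II and III together 6 of 14 rose, Uqcr11 among them (1.85), and 4 fell (5 and 8 with library totals), the others being Sdhd (-1.02) and Uqcrfs1 (-0.29). The Uqcrfs1 call was lost without GB library 3 (edgeR adjusted p = 0.0563) or aged vehicle library 3 (adjusted p = 0.0512), and with upper-quartile factors (-0.20). Cox5a was the oxidase subunit that fell, from 224, 249 and 258 CPM to 104, 103 and 94.3 CPM (12.8% shared). The ATP synthase subunits that fell were alpha and beta, which form its catalytic head (Atp5a1, -0.88, and Atp5b, -0.39). The complex I subunits that fell, Ndufs1, Ndufv1 and Ndufa9, had lengths of 8086, 2634 and 2101 bases, against a median of 1569 bases over the 37 subunits. With the length offset their log2 fold changes were -0.75, -0.83 and -1.23, so the falls of Ndufv1 and Ndufa9 were larger with it.

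Mitochondrially encoded genes rose with the nuclear subunits. Of 13 protein genes 11 rose and none fell (median 1.53, or 1.28 with the length offset). Their median length was 784 bases, and genes of at least 10 CPM over 500 and up to 1000 bases had a median of 1.45. mt-Co1, the catalytic subunit of cytochrome c oxidase, rose from 43695, 40360 and 45339 CPM to 72648, 88051 and 92231 CPM. mt-Nd1, of complex I, rose from 19999, 18043 and 19232 CPM to 69680, 66683 and 67406 CPM. mt-Cytb, the electron carrier of complex III, rose from 19707, 19219 and 22421 CPM to 53005, 59662 and 64277 CPM. mt-Co3, another oxidase subunit, had the greatest rise of the group, from 205, 182 and 207 CPM to 1877, 2226 and 1978 CPM (log2 fold change 3.36 ± 0.17). The members that missed the threshold, mt-Nd4l and mt-Atp8, were named after their values were seen (-0.61 ± 0.71 and 0.73 ± 0.32). mt-Atp8 was called higher in 5 alternatives, among them DESeq2 (adjusted p = 0.044), limma-voom (adjusted p = 0.0365), and edgeR with a minimum count of 50 (adjusted p = 0.0495) or without aged vehicle library 2 (1.07, adjusted p = 0.0208). Nuclear copies of mitochondrial genes may have taken some of these reads.

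**Figure D4:**
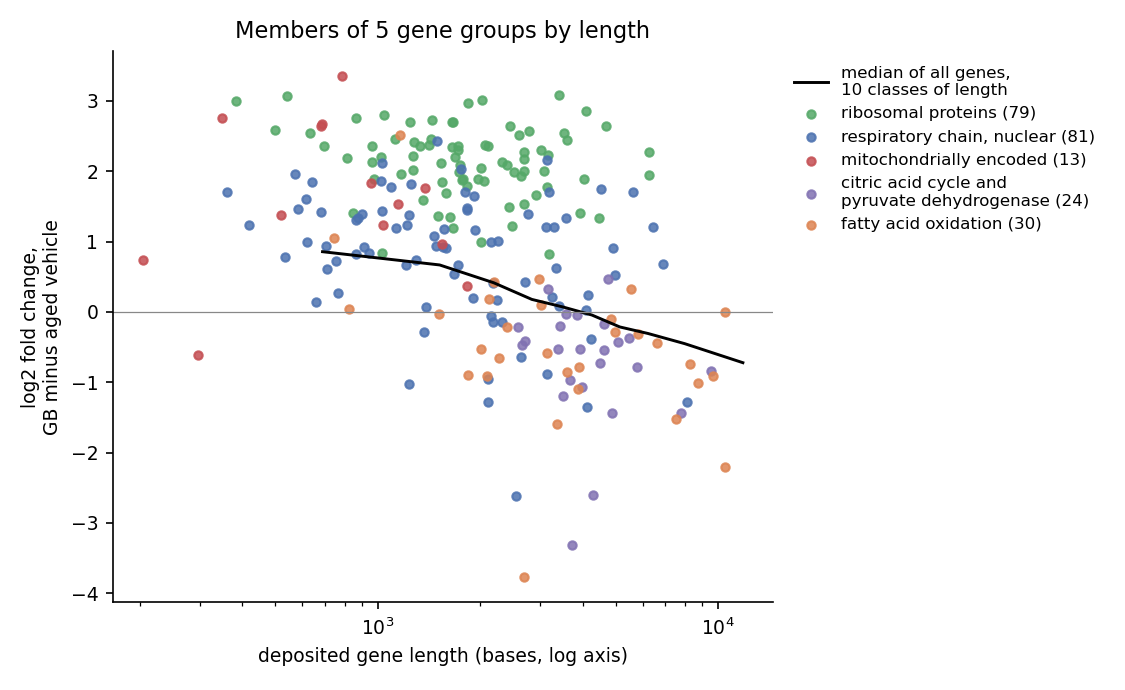
Log2 fold change, GB minus aged vehicle, of each tested member of 5 gene groups (points) against deposited gene length in bases on a log axis. The black line joins the medians of all genes tested in 10 classes of length. Ribosomal protein genes lie above the line at all their lengths, and most genes of the citric acid cycle and of fatty acid oxidation lie below it.

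The citric acid cycle was mainly lower with GB. Of 24 genes of the citric acid cycle and pyruvate dehydrogenase 16 fell and 2 rose (median -0.53, or -0.47 with the length offset). Among the 20 that share no exonic base with another gene, 13 fell and 2 rose. Pdha1, the pyruvate dehydrogenase subunit that admits carbohydrate carbon to the cycle, fell from 488, 435 and 475 CPM to 47.8, 45.7 and 46.8 CPM. Its log2 fold change was -3.32 ± 0.08 (edgeR adjusted p = 1.97e-10), and it shares 16.2% of its exonic bases with the opposite strand. Citrate synthase (Cs), a common measure of mitochondrial content with no shared exon, fell from 707, 697 and 714 CPM to 437, 401 and 398 CPM. Groups were well apart in both genes. Pyruvate carboxylase (Pcx) and the pyruvate dehydrogenase kinase Pdk2 rose on the TMM scale (0.47 and 0.32) and had negative values with library totals (-0.10 and -0.24). Without aged vehicle library 3 the Pdk2 call was lost (0.29, edgeR adjusted p = 0.0519).

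Genes of fatty acid uptake and oxidation were also mostly lower, with 17 of 30 called lower and 4 higher (median -0.49, or -0.31 with the length offset). Acadvl, the first enzyme of the spiral for long chains, fell from 184, 206 and 188 CPM to 12.7, 14.9 and 14.7 CPM, with 42.9% of its exonic bases shared with the opposite strand. Acadm, Acsl1 and Hadha have less overlap and fell less than Acadvl, but whether overlap set the size of falls in this list was not tested. Acadm, which acts on medium chains, fell from 302, 310 and 302 CPM to 191, 177 and 163 CPM. Acsl1, which activates fatty acids with coenzyme A (9.91% shared), fell from 313, 365 and 403 CPM to 78.9, 75.9 and 79.4 CPM. Hadha, of the trifunctional enzyme, fell from 368, 384 and 381 CPM to 206, 187 and 171 CPM. The 2 members with the greatest rises were Etfb, which passes electrons from these enzymes to the chain (9.53 to 54.7 CPM on average), and the thioesterase gene Acot13 (69.8 to 145 CPM). Etfb shares over 50% of its exonic bases with a gene on its own strand.

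Regulators of mitochondrial genes were lower. Of 16 genes of the PGC, PPAR and ERR families 10 fell and none rose (median -0.78, or -0.36 with the offset, where 9 fell and 2 rose). Ppargc1b, a coactivator of oxidative genes, fell from 14.1, 13.5 and 14.2 CPM to 0.89, 1.74 and 1.02 CPM (log2 fold change -3.51 ± 0.26, edgeR adjusted p = 2.35e-07). Its relative Ppargc1a fell from 40.2, 45 and 41.4 CPM to 16.8, 28.4 and 26.8 CPM, and the receptor Esrrg from 25.6, 27.4 and 30 CPM to 7.6, 7.26 and 7.93 CPM. Of 27 genes of mitochondrial fusion, fission and import 17 rose and 8 fell, but with library totals 9 rose and 11 fell. Import proteins such as Timm13 rose (2.07), while the fusion genes Opa1 and Mfn2 fell (-1.47 and -0.87).

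Carbohydrate and phosphate pathways were mixed. Of 20 glycolysis genes 8 rose and 6 fell, and with library totals 4 rose and 13 fell. The enzymes Aldoa and Pgam2 rose, Aldoa from 14722, 13514 and 13279 CPM to 37964, 43714 and 41037 CPM. The flux-setting genes Pfkfb3, which makes the activator of phosphofructokinase, and Hk2, which traps glucose, fell. Pfkfb3 went from 212, 222 and 333 CPM to 39.4, 32.3 and 38.4 CPM, and Hk2 from 447, 343 and 341 CPM to 131, 140 and 144 CPM. Gapdh differed by -0.13 ± 0.09 and missed the threshold. In glycogen metabolism 10 of 18 genes fell and 3 rose, or 8 and 5 with the length offset. Glycogen synthase (Gys1, -0.94), the branching enzyme Gbe1 (-1.28) and laforin (Epm2a, -1.35) fell, and the primer glycogenin (Gyg) rose by 0.76. Of 18 genes of branched-chain amino acid breakdown 11 fell and 2 rose, or 7 and 3 with the length offset. Bckdha, of the rate-limiting dehydrogenase, fell from 44.9, 41.7 and 41 CPM to 4.77, 5.58 and 3.36 CPM but shares 61.7% of its exonic bases with the opposite strand, while its partner subunit Dbt, with none shared, fell by 1.09 on the log2 scale. Among 16 genes of creatine and adenylate buffering (2 up and 9 down with library totals) 6 rose, Gamt (1.92) and Prkag1 (1.83, 43.7% shared) among them, and 5 fell, Ckmt2 (-1.13) and the AMP kinase subunit Prkaa2 (-1.38) among them.

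The ubiquitin ligases that mark wasting, Trim63 and Fbxo32, showed no called difference in the fit over all 9 libraries. Trim63 stood at 593, 216 and 245 CPM in aged vehicle and 393, 682 and 702 CPM with GB, and Fbxo32 at 337, 337 and 298 CPM against 330, 462 and 568 CPM. Groups overlapped in both, and both missed the threshold (edgeR adjusted p = 0.186 and 0.502). Without aged vehicle library 1, Trim63 was called higher (log2 fold change 1.35, edgeR adjusted p = 0.00272). Fbxo32 was called higher without young vehicle library 1 (0.47, edgeR adjusted p = 0.0235) and with only the 6 libraries compared (0.48, adjusted p = 0.034). Young vehicle libraries, which entered the estimate of the spread, stood at 137, 649 and 643 CPM of Fbxo32. Of 18 genes of this list 8 fell and 1, Asb2, rose (0.88, lost with library totals). The 8 included Foxo3, a transcription factor of atrophy genes, which went from 72, 56.4 and 54.8 CPM to 30.5, 32.8 and 32.4 CPM, and Trim55 (-1.32). With the length offset 5 fell.

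Proteasome subunits rose in 23 of 35 cases and fell in 4, with a median of 0.46 that turned to -0.11 with library totals, where 9 rose and 14 fell. Psmd4, a ubiquitin receptor, rose from 126, 102 and 104 CPM to 271, 316 and 296 CPM, and the core subunit Psma7 by 1.24 on the log2 scale. The 4 that fell were Psmd1, the largest subunit of the cap (131, 122 and 121 CPM to 31.9, 37.3 and 38.3 CPM), Psmb7 (-1.55), Psme4 (-1.07) and Psmd11 (-0.67). Of 30 autophagy genes 8 rose and 10 fell, near the shares over all genes tested (24.4% higher and 28.8% lower). With the length offset 10 rose and 5 fell. Atg9a, which supplies membrane to the autophagosome, fell from 92.3, 88.2 and 80 CPM to 4.55, 3.81 and 5.18 CPM and shares 32.6% of its exonic bases, almost all with a gene on its own strand. Atg7, the enzyme that starts both conjugation reactions of autophagy, rose from 11.2, 11.1 and 11 CPM to 28.9, 28.8 and 28.2 CPM. The lysosomal regulator Tfeb rose from 87.5, 80.7 and 66.7 CPM to 188, 185 and 182 CPM. Map1lc3a rose too (1.29). Of 25 lysosome genes 10 rose, the protease gene Ctsd among them, and 9 fell, or 13 and 5 with the length offset and 7 and 15 with library totals.

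Growth signalling genes were mainly lower, and for the insulin pathway this went with length. Of 34 genes of insulin, IGF and mTOR signalling 18 fell and 6 rose (median -0.58). With the length offset 7 fell and 10 rose (median -0.03). The insulin receptor gene Insr fell in both fits, from 106, 102 and 99.5 CPM to 38.5, 39.9 and 46.7 CPM, as did Pdpk1, the kinase that activates Akt, from 55.9, 49.6 and 49.1 CPM to 20.2, 17.6 and 14.3 CPM. Akt1 fell by 0.65 on the log2 scale, and the stress-sensing Sesn3 fell too. Of 33 genes of myostatin, activin and BMP signalling 20 fell and 4 rose (median -0.60, or -0.35 with the offset). Mstn, the secreted brake on muscle growth, stood at 45.5, 35.1 and 29 CPM in aged vehicle and 53.7, 59.6 and 87.8 CPM with GB. It rose by 0.87 ± 0.21 (edgeR adjusted p = 0.00453), with no overlap between groups, and missed the threshold with library totals (0.31, adjusted p = 0.183). Its receptor Acvr2b fell from 4.45, 6.81 and 6.87 CPM to 0.826, 2.04 and 1.15 CPM, and the signal carrier Smad3 from 162, 125 and 100 CPM to 49.3, 44.5 and 51.7 CPM. The inhibitory Smad6 fell as well (-1.79).

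Markers of denervation and of regeneration changed in either direction. Of 24 denervation and junction genes 5 rose and 6 fell, near the shares over all genes tested (24.4% higher and 28.8% lower). The acetylcholine receptor subunit gene Chrna1 stood at 26.7, 15.6 and 22.9 CPM against 21.6, 23.2 and 19.1 CPM, and Runx1, a transcription factor induced in denervated muscle, at 5.93, 4.86 and 8.03 CPM against 8.68, 3.99 and 3.39 CPM. Groups overlapped in both, and both missed the threshold. Runx1 was called lower without GB library 1 (log2 fold change -0.77, edgeR adjusted p = 0.0297). Lrp4, which passes the agrin signal to the kinase Musk, fell from 16.2, 17.9 and 15.2 CPM to 3.4, 4.89 and 4.32 CPM, while Musk differed by -0.35 ± 0.23 and missed the threshold. Utrophin (Utrn) fell from 81.5, 66.9 and 72.2 CPM to 19.1, 21.7 and 24.5 CPM, and the growth arrest gene Gadd45a rose (0.99). Of 24 satellite cell and myogenic genes 5 rose and 8 fell (3 with the length offset). Pax7, the marker of muscle stem cells, Myod1 and Myog missed the threshold (-0.34 ± 0.34, -0.01 ± 0.16 and 0.37 ± 0.29). Myf6, the myogenic factor of mature fibres, rose from 51.7, 62.4 and 60.4 CPM to 182, 139 and 158 CPM, and Myf5 rose from a low level (1.46). Notch1 fell from 44.5, 28.2 and 26.9 CPM to 3.43, 3.15 and 3.01 CPM, with 9.76% of its exonic bases shared with the opposite strand.

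Cell death and senescence genes did not share a direction. Of 36 apoptosis genes 9 rose and 11 fell, near the shares over all genes tested (24.4% higher and 28.8% lower). The pore-forming Bax rose from 8.39, 7.83 and 7.21 CPM to 23.3, 23.8 and 23.9 CPM, and its relative Bad, which also promotes cell death, from 2.13, 2.29 and 2.25 CPM to 13.1, 8.4 and 11.3 CPM (20.5% shared with the opposite strand). Aifm1, a flavoprotein of mitochondria, fell (-1.10). Of 21 cell cycle inhibitors and p53 targets 4 rose and 6 fell. Cdkn1a, the p53-induced inhibitor p21, stood at 121, 50.8 and 56.1 CPM against 53.6, 65.9 and 49.9 CPM. Its groups overlapped and it missed the threshold (edgeR adjusted p = 0.279). Cdkn2c rose from 4.87, 4.91 and 4.94 CPM to 21.3, 17.9 and 20.2 CPM, Cdkn1c rose by 2.05 on the log2 scale, and Rbl2 fell from 55.4, 51.6 and 52.1 CPM to 14, 14.2 and 14.9 CPM. Of 29 secreted factors linked to senescence 3 rose, Igfbp4 among them (1.24), and 10 fell. The matrix protease gene Mmp2 fell from 36.1, 34.9 and 37.3 CPM to 6.52, 7.38 and 6.43 CPM.

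Antioxidant genes rose in 23 of 36 cases and fell in 4, with a median of 0.56 that turned to -0.01 with library totals, where 13 rose and 12 fell. Superoxide dismutase (Sod1) rose from 98.4, 90.5 and 94 CPM to 228, 269 and 255 CPM. Gpx1, a glutathione peroxidase, rose from 1.02, 1.71 and 1.63 CPM to 9.09, 8.82 and 9.63 CPM. The small muscle selenoprotein Selenow rose from 745, 666 and 652 CPM to 2952, 2958 and 2886 CPM. The carrier Selenop fell from 162, 166 and 171 CPM to 31.7, 32.3 and 29.8 CPM (15.5% shared), and the thioredoxin reductase Txnrd1 fell by 0.86 on the log2 scale. Of 31 chaperones 12 rose and 7 fell, and with library totals 6 rose and 15 fell. The cytosolic Hspa8 rose from 735, 745 and 716 CPM to 1801, 1881 and 1804 CPM, and the small heat shock genes Hspb1 and Cryab rose too (1.25 and 1.11). The mitochondrial chaperones Hspa9 and Hspd1 fell (-1.37 and -0.78). Of 33 genes of the unfolded protein and integrated stress responses 9 rose, Atf4, Atf3 and Herpud1 among them (0.96, 1.44 and 1.18), and 13 fell, the sensor Ern1 among them (-1.57). With the length offset 6 rose and 8 fell.

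Rhythmic and quickly induced genes varied widely between libraries. The clock gene Per1 stood at 373, 127 and 129 CPM in aged vehicle and 76.9, 88.2 and 98.9 CPM with GB, and Per2 at 43.3, 14.4 and 17.6 CPM against 24.2, 36.5 and 34.1 CPM. Both missed the threshold, as did Arntl (-0.07 ± 0.53). Aged vehicle library 1 was high in Per1, Per2, Klf9 and Zbtb16 alike. Of 21 clock genes 6 fell and none rose, or 3 and 1 with the length offset. The repressors Nr1d1 and Bhlhe40 fell, Nr1d1 from 128, 124 and 112 CPM to 41.7, 26.1 and 28.7 CPM and Bhlhe40 from 128, 127 and 154 CPM to 52.8, 45.3 and 51 CPM. Of 28 immediate early genes 8 rose and 3 fell, or 5 and 6 with library totals. Fos rose from 11.9, 6.65 and 11.1 CPM to 62, 58.2 and 87.3 CPM (log2 fold change 2.81 ± 0.59), Ier3 rose (1.60) and Nr4a3 fell (-1.25). Of 20 glucocorticoid-responsive genes 3 rose and 4 fell. The glucocorticoid receptor gene Nr3c1 fell from 141, 114 and 102 CPM to 52.3, 50.4 and 53.7 CPM, and its targets Klf9 and Zbtb16 fell (-1.56 and -2.06). Another target, Tsc22d3, rose from 390, 307 and 292 CPM to 669, 687 and 693 CPM but missed the threshold with library totals (0.49, edgeR adjusted p = 0.123). The part of the hour of sampling in these values was not tested.

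The receptor that GB blocks was near the floor of detection. Ptafr stood at 2.09, 2.46 and 2.66 CPM in aged vehicle and 1.34, 1.89 and 0.704 CPM with GB, with no overlap and a log2 fold change of -0.87 ± 0.33 (edgeR adjusted p = 0.0401). In edgeR the call was lost in 10 of 23 alternatives, 6 of which left out a library: GB library 1 or 3 (adjusted p = 0.064 and 0.105), aged vehicle library 2 or 3 (0.0877 and 0.109) or young vehicle library 2 or 3 (0.0598 and 0.057). Of 16 genes of the platelet activating factor pathway 6 fell and 2 rose, or 3 and 4 with the length offset. Pafah1b1, a subunit of an enzyme that breaks the mediator down, fell from 191, 163 and 158 CPM to 54.8, 56.8 and 59 CPM. Pla2g7, the secreted enzyme that does so in plasma, rose from 58, 52.5 and 51.3 CPM to 68.1, 96.6 and 114 CPM, a call lost with library totals. Lpcat1, which makes the mediator, rose by 0.60 ± 0.23 (edgeR adjusted p = 0.0442). In edgeR that call was lost without 1 library in 6 of 9 cases: GB library 1 or 2, aged vehicle library 1, 2 or 3, or young vehicle library 3 (adjusted p = 0.051 to 0.166). It was also lost with library totals, where the value was 0.02 (adjusted p = 0.941), and with only the 6 libraries (adjusted p = 0.0572).

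Interferon response genes were mostly higher on the TMM scale where they changed. Of 34, 13 rose and 4 fell, with a median of 0.34 that turned to -0.23 with library totals, where 6 rose and 9 fell. Ifit1, which binds foreign RNA, rose from 1.92, 2.49 and 3.76 CPM to 11, 7.17 and 6.3 CPM, and Irf7 rose by 1.41 on the log2 scale, while Trim25 fell by 0.88. Of 21 antigen presentation genes 7 rose and 2 fell, with a median of 0.29 that turned to -0.28 with library totals, where 3 rose and 5 fell. B2m, the light chain of class I, rose from 107, 106 and 133 CPM to 302, 211 and 227 CPM and the immunoproteasome subunit Psmb10 from 10.6, 12.4 and 12.8 CPM to 32, 32.8 and 26.9 CPM. The class I heavy chain gene H2-K1 differed by -0.05 ± 0.15.

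Marker genes of the other cell types in muscle moved in different directions. In bulk tissue fewer cells of a type and less RNA per cell cannot be told apart. Of 24 macrophage markers 7 fell, near the share over all genes tested (28.8%), and 1 rose, against 24.4% over all genes. Their summed level went from 372.8 to 436.2 CPM in aged vehicle to 248.4 to 274.3 CPM with GB. The defining surface gene Adgre1 fell from 5.56, 5.79 and 7.64 CPM to 1.53, 1.74 and 1.86 CPM, the growth factor receptor Csf1r from 26, 27.5 and 29.9 CPM to 14.2, 17.1 and 14.9 CPM, and Mrc1 fell too (-1.05). Cd68 differed by -0.11 ± 0.23, and the marker that rose was C1qa (0.56 ± 0.12, or just below 0 with library totals). Lymphocyte markers summed to 29.6 to 35.2 CPM in aged vehicle and 121.4 to 181.9 CPM with GB. In the young vehicle libraries alone their sum ran from 26.8 to 279.6 CPM, a range that covers both groups. Of 19 tested, 3 rose and none fell. With the length offset and with library totals only 1 rose, since Ighm (adjusted p = 0.0664 and 0.0968) and Trbc1 (adjusted p = 0.054 and 0.0582) missed the edgeR threshold. Cd3e, of the T cell receptor complex, rose from 0.721, 1.47 and 1.03 CPM to 5.91, 4.32 and 5.69 CPM. Ighm, the antibody heavy chain, stood at 26.7, 27.6 and 22 CPM against 148, 84.8 and 94 CPM, and made up most of the sum. Its call (edgeR adjusted p = 0.0392) was lost without any 1 of the 6 libraries (adjusted p = 0.055 to 0.117). The call of Trbc1, at 0.0704, 0 and 0 CPM against 1.46, 0.33 and 0.192 CPM, was lost without GB library 1, 2 or 3 or aged vehicle library 2 or 3 (edgeR adjusted p = 0.0521 to 0.17). The B cell marker Cd79a was under 0.5 CPM in all 6 libraries.

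Blood and vessel markers were lower in part. Of 9 red cell markers 5 fell and 1 rose, and their sum was 1260.7 to 2221.2 CPM against 791.7 to 898.6 CPM. Alas2, which starts haem synthesis in red cell precursors, fell from 24.2, 34.1 and 25.1 CPM to 3.75, 3.54 and 3.1 CPM (15.5% shared with the opposite strand). The globin gene Hbb-bt fell from 62.9, 98.5 and 70.9 CPM to 24.3, 18.2 and 23.1 CPM. Hba-a1 fell by 0.98 on the log2 scale, a call lost without GB library 3 (edgeR adjusted p = 0.0662). Of 22 endothelial markers 9 fell and 6 rose, and the sums overlapped (1349.2 to 1440.8 CPM and 1366 to 1557.3 CPM). Pecam1 and Kdr fell, Pecam1 from 120, 121 and 124 CPM to 81.8, 67.8 and 64 CPM, and Rgcc rose from 81, 65 and 71.1 CPM to 185, 221 and 248 CPM. Of 15 smooth muscle and pericyte markers 9 fell and 2 rose, with Myh11 down from 110, 106 and 111 CPM to 53.1, 64.4 and 46.8 CPM and Acta2 down by 0.61 on the log2 scale. Their sum was nevertheless higher with GB, since the list also holds desmin, which muscle fibres express.

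Tendon markers were mainly lower with GB, as were collagen chains before the length offset. Of 22 collagen chains 15 fell and none rose (median -0.96), with 1 higher at an unadjusted edgeR p under 0.05 and 1 with DESeq2. With the length offset 6 fell and 1 rose (median -0.53). Col4a1, of basement membranes, fell from 230, 231 and 243 CPM to 81.5, 75.8 and 65.9 CPM (log2 fold change -1.66 ± 0.11, edgeR adjusted p = 9.91e-08). Col12a1 fell from 10.9, 12.1 and 13.2 CPM to 2.83, 1.53 and 0.64 CPM, and Col6a3 by 1.79 on the log2 scale. Col1a1, the main chain of fibrous tissue, stood at 43.7, 82 and 72 CPM against 33.4, 16.9 and 16.2 CPM. Its call (edgeR adjusted p = 0.0486) was lost in 15 of 23 alternatives, among them the length offset (adjusted p = 0.136) and 7 of the 9 fits without 1 library (0.0503 to 0.135), all but those without GB library 1 or young vehicle library 1. Of 15 tendon markers 10 fell and 1 rose (median -1.69, or -1.49 with the offset), and their sum was 266.7 to 387.2 CPM against 101.7 to 149.6 CPM. The collagen-binding Fmod fell from 86.5, 106 and 135 CPM to 30.8, 22.4 and 16.7 CPM and the tendon marker Tnmd from 4.27, 6.36 and 9.51 CPM to 1.24, 1.62 and 2.3 CPM. The marker that rose was Scx, the transcription factor that defines tendon cells, from 6.19, 5.87 and 8.18 CPM to 21.9, 17.6 and 14.6 CPM. Fibroblast markers were split, 7 up and 9 down of 20 (9 and 5 with the length offset), with Pdgfra down from 38.7, 41.5 and 40.5 CPM to 14.9, 23.3 and 22 CPM and Ly6a up from 44.9, 63.8 and 60.3 CPM to 178, 148 and 137 CPM. The amount of tendon or connective tissue in each sample was not measured, and its part in these values was not tested.

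Fat and nerve sheath markers were mostly higher on the TMM scale where they changed. With library totals 6 adipocyte markers rose and 6 fell, and 3 Schwann cell markers rose and 3 fell. Of 19 adipocyte markers 10 rose and 2 fell (median 0.77), although the summed level overlapped (4011.6 to 4561.6 CPM and 4166.8 to 5212.5 CPM). Adipoq, the hormone adiponectin, rose from 7.42, 11.5 and 9.07 CPM to 35.7, 16.7 and 22.3 CPM and the lipid droplet gene Cidec from 7.97, 8.21 and 10 CPM to 49.5, 26.4 and 35.9 CPM. Plin1, which also defines fat cells, missed the threshold (0.18 ± 0.47). Of 17 Schwann cell markers 7 rose and 2 fell (median 0.69), with sums of 146.2 to 156.6 CPM and 200.8 to 312.1 CPM. Ngfr, a neurotrophin receptor of these cells, fell from 3.22, 4.61 and 2.64 CPM to 0.699, 0.48 and 0.64 CPM. Of 4 tested neutrophil markers none was called. Of 7 tested skin markers none rose and 1 fell, Jup, which other tissues express too. The keratinocyte gene Krt14 was at 0 in 5 of the 6 libraries and at 0.256 CPM in GB library 3.

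Genes that act in the nucleus differed between groups of function. Of 42 chromatin regulators 32 fell and none rose (median -0.86). With the length offset 15 fell and 6 rose (median -0.21). The histone methyltransferase genes Kmt2d and Setd2 and the DNA methyltransferase gene Dnmt3a fell in both fits. Kmt2d went from 97.1, 79.2 and 75.9 CPM to 28.1, 29.7 and 25.7 CPM (-1.60, or -0.60 with the offset) and Setd2 fell from 47.2, 38 and 34.8 CPM to 10.6, 13.3 and 12.2 CPM (-1.73, or -1.05). Of 43 splicing factors 12 rose and 10 fell (25 and 9 with the offset, 7 and 30 with library totals). Snrpd2, a core protein of the spliceosome, rose from 34.4, 35.6 and 32.1 CPM to 124, 148 and 134 CPM, and the scaffold Srrm2 fell from 438, 395 and 344 CPM to 57.8, 88.4 and 102 CPM. Of 43 subunits of RNA polymerase II and Mediator 25 rose and 9 fell, with a median of 0.56 that turned to -0.01 with library totals, where 15 rose and 15 fell. The catalytic subunits Polr2a and Polr2b fell (-1.18 and -1.60), and the shared subunit Polr2f rose from 14.9, 15.7 and 17.8 CPM to 98.8, 83.6 and 99.4 CPM. Of 11 histone genes 5 rose and 2 fell, or 1 and 4 with library totals. Of 18 nuclear long RNAs 5 rose and 5 fell (median -0.07, or 0.54 with the length offset). Malat1 fell from 813, 668 and 560 CPM to 118, 176 and 229 CPM. Neat1, the RNA core of paraspeckles, rose from 414, 1084 and 921 CPM to 1397, 2497 and 2772 CPM, a call lost without GB library 3 (edgeR adjusted p = 0.0504) and with library totals (adjusted p = 0.0946). Gas5, which carries small nucleolar RNAs in its introns, rose from 21.8, 20.4 and 18 CPM to 82.7, 91.1 and 96.4 CPM.

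**Figure D5:**
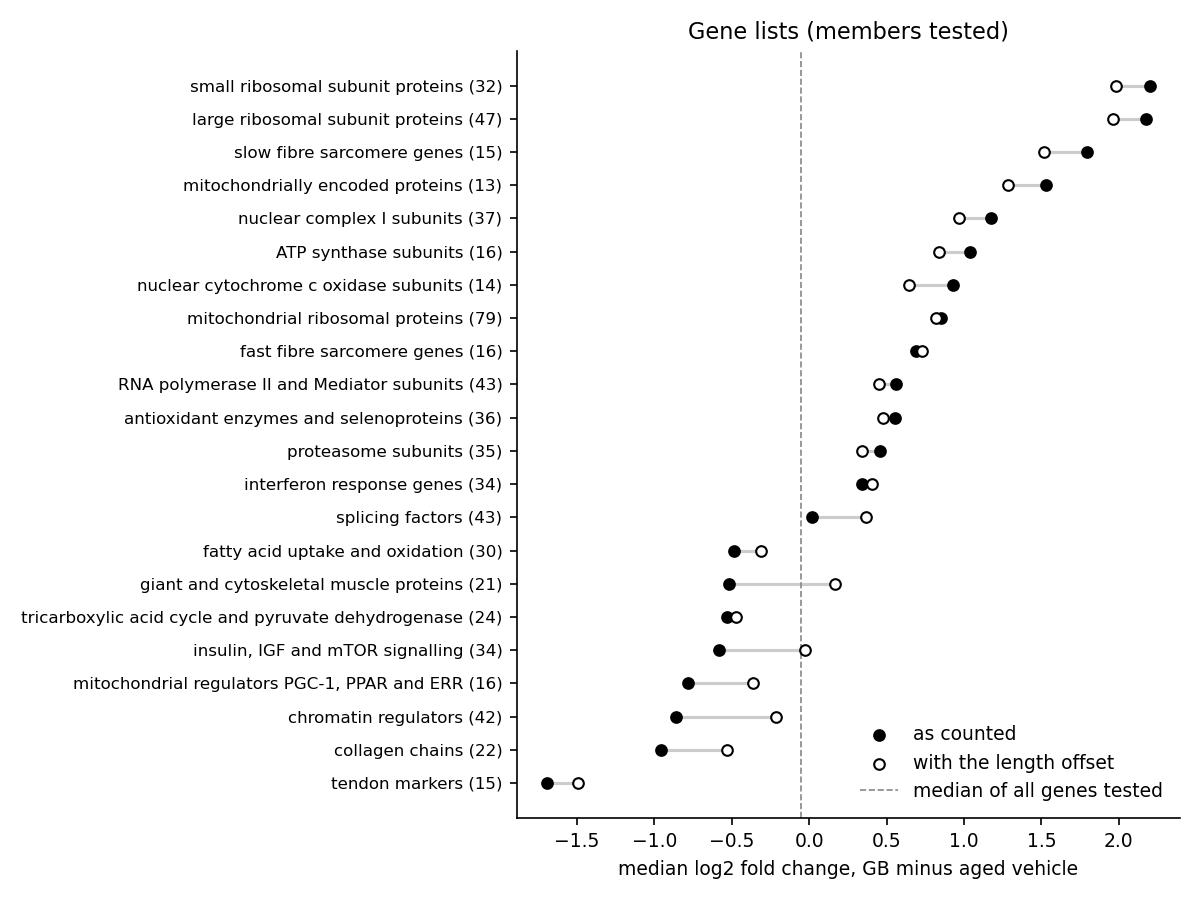
Median log2 fold change, GB minus aged vehicle (horizontal axis), of 22 gene lists as counted (filled) and with the length offset (open). The number of tested members is in brackets, and the dashed line is the median of all genes tested. Ribosomal protein lists keep medians near 2 in both fits, while the lists of giant muscle proteins and insulin signalling move to near or above 0 with the offset.

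Sterol synthesis and limb position genes closed the survey. Of 30 genes of cholesterol and fatty acid synthesis 14 fell and 3 rose (median -0.48, or -0.10 with the length offset). Idi1, an isomerase of the mevalonate pathway, fell from 2.85, 3.58 and 3.88 CPM to 0.191, 0.18 and 0.064 CPM. The decarboxylase gene Mvd of the same pathway rose (1.29). Of 28 limb position transcription factors 10 rose and 8 fell, or 8 and 14 with library totals. Besides Hoxd9 and Hoxd10, Hoxd8 rose from 4.1, 3.71 and 4.8 CPM to 46.9, 50.8 and 45.5 CPM. Tbx1, which marks head and some fast muscles, fell from 85.6, 92.4 and 95.1 CPM to 19.9, 15 and 17.9 CPM. Hoxa9 differed by -0.05 ± 0.20. Young vehicle libraries averaged 46.9 CPM of Hoxd8 and 9.27 CPM of Tbx1. Which portion of the muscle each sample came from is not given, and its part in the slow fibre and position genes was not tested.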

How the data were processed

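RNA of gastrocnemius was made into libraries with the KAPA mRNA HyperPrep kit, per the labels' protocols. The authors deposited raw counts per gene with a gene length. FastQC, HISAT2, SAMtools, DESeq2 and the builds GRCm39 and mm10 appear in the submitters' processing notes, with no version or role. Counting software, annotation and strand setting: not given in the sources used here. From these counts, 17534 genes passed edgeR's filterByExpr (minimum count 10, minimum total 15). TMM factors and a robust quasi-likelihood fit over all 9 libraries (edgeR 4.0.16, R 4.3.3) gave the contrast GB minus aged vehicle, with Benjamini-Hochberg adjustment over all genes tested and a threshold of 0.05. The length offset was a lowess curve (span 0.3, prior count 2) per library. Exonic overlap came from GENCODE M21 by symbol. Scripts were tested on simulated data.

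The members and the 62 gene lists were chosen with earlier results of these data known. Named genes come from the 10 rises and 10 falls of greatest size (called, at least 5 CPM in the higher group, no overlap of groups, no predicted genes or clones), the 10 genes with the highest level, the first 4 members of each list with the 3 greatest rises and falls called in it, members of counts of 5 or fewer, and the 5 greatest rises and falls after the length offset. Alternatives were other scalings, filters, tools (DESeq2 1.42.0, limma-voom in limma 3.58.1), length and GC offsets, a replicate block and leaving out each library. Some genes that the rule names are not reported here.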

Additional observations from a re-analysis of the deposited data

How the results depend on the processing

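With edgeR, asking for a log2 fold change past 1 left 5002 calls (2296 higher and 2706 lower), and testing only genes with no exonic base shared left 5611 (2627 and 2984), since fewer genes could be called. Library totals gave 2030 higher and 8421 lower. In every other alternative run, 3215 to 4820 genes were higher and 3524 to 5402 lower. Spearman's rho between log2 fold change and length, -0.35 as reported, was -0.0835 with the length offset, -0.0581 with length and GC offsets, -0.32 with limma-voom, -0.46 with a minimum count of 50, -0.0425 with no filter, -0.39 with the 6 libraries alone and -0.57 among genes of at least 10 CPM. Without 1 library it ran from -0.34 to -0.29. It was negative in all of these, and the cause of its range was not tested. Without mitochondrially encoded genes, the 50 most abundant genes took 8.53 percentage points more of the counts with GB.

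Of 242 genes described, 207 stayed called or not called in every alternative fit, and the called ones among them kept their direction. This tally leaves out the stricter thresholds (adjusted p under 0.01 or a log2 fold change past 1). It also leaves out the set with no exonic base shared. A change of sign was counted only where the gene was called as reported or in the alternative, and 5 genes had one. Sign changes of genes called in neither fit, such as Runx1 (-0.23, or 0.54 with the length offset), were not counted. Myh4 was at -0.38, Pcx at -0.10, Pdk2 at -0.24 and C1qa at -0.0026 with library totals. Ttn was at 1.27 with the length offset and at 1.503 with length and GC offsets. In 16 genes the call changed when 1 library was left out. Calls were lost with limma-voom for Srp54b, Ttn, Trbc1, Col1a1, Tnmd and Ngfr, with length and GC offsets for Pdk2, C1qa, Trbc1, Ighm, Pdgfra and Col1a1, and with no filter for Ttn, Trbc1, Ighm, Hba-a1 and Col1a1. With library totals, 11 genes gained a call and 10 lost theirs, sign changes included.

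Replicate numbers are shared by the groups, and the labels do not say whether they pair libraries. Deviations of same-numbered libraries had correlations of -0.028, 0.001 and -0.018, and those of differently numbered ones ran from -0.02 to 0.031. Such correlations across genes cannot decide whether libraries were matched, so the block was run as an alternative. With the replicate block 4073 genes were higher and 4885 lower, of which 8823 were shared with the unblocked calls in the same direction. Under the block the calls of Ptafr, Lpcat1 and Col1a1 were lost and mt-Atp8 gained one. With the block and the length offset, rho was -0.0766 and Ttn was at 1.27.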
